A study of Mus musculus with 2 samples.

Results

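Cholesterol synthesis, uptake and transport were followed through 30 genes, of 43346 genes in the deposited gene tables. The genes were a named list taken by symbol, not by their level, and all 30 were found once their identifiers were matched to mouse gene names. By role, 7 encode enzymes of the mevalonate stage, 3 enzymes from squalene to lanosterol, 8 enzymes after lanosterol, 5 proteins that sense sterols and 7 proteins of uptake, ester turnover and transport. The list does not hold every step of the pathway.

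The tissue was the whole testis of 1 male C57BL/6J mouse, an inbred strain, aged 10 weeks. RNA was extracted with the RNeasy Lipid Tissue Mini Kit, and polyA mRNA was sequenced in libraries of 350 to 450 bases. Replicate 2, made in 2015, and replicate 1, made earlier, are technical replicates of this animal, and there is no treatment, genotype or second condition. The deposited gene rows hold 20675521 expected counts, rounded per gene, for replicate 2 and 31995370 for replicate 1. Every value therefore describes 1 animal, and an SD over n = 2 is a spread between technical libraries.

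Cholesterol is built from acetyl-CoA by way of mevalonate, isoprenoid diphosphates, squalene and lanosterol, and the sterol ring is then trimmed in the endoplasmic reticulum. When sterols are low, Scap carries the SREBP transcription factors to the Golgi, where they are released to switch the pathway on. When sterols are high, Insig proteins hold Scap back. In testis, Leydig cells take up, store and use cholesterol to make testosterone, while germ cells transcribe several enzymes of the late steps, Cyp51 among them. A whole testis mixes these cells, and more cells of a type cannot be told apart from more RNA per cell.

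The markers matched the label. All 6 germ cell, all 6 Sertoli cell and all 6 Leydig cell markers reached 1 TPM (a level scaled for transcript length and library depth) in both libraries. The sums were 1678 TPM in replicate 2 and 2728 TPM in replicate 1 for germ cells, led by Sycp3 and Ddx4. For Sertoli cells, led by Amhr2 and Cldn11, they were 344 TPM in replicate 2 and 162 TPM in replicate 1. For Leydig cells, led by Insl3 and Cyp17a1, they were 2124 TPM in replicate 2 and 469 TPM in replicate 1. Lower sums were found for macrophages (C1qa, Csf1r; 21.8 TPM in replicate 2 and 5.05 TPM in replicate 1), endothelium (Cdh5, Kdr; 6.49 TPM in replicate 2 and 3.85 TPM in replicate 1) and smooth muscle (Acta2, Myh11; 70.5 TPM in replicate 2 and 13.3 TPM in replicate 1). Red blood cell markers (Hbb-bs, Hba-a1) summed to 205 TPM in replicate 2 and 26.7 TPM in replicate 1. Adipocyte markers (Adipoq, Fabp4) summed to 17.6 TPM in replicate 2 and 12.3 TPM in replicate 1, and liver markers (Alb, Apoa1) to 4.55 TPM in replicate 2 and 1.38 TPM in replicate 1, with Plin1 and Apoa1 at 0 in replicate 1. Single markers did not all follow their sums. Amhr2, which made up most of the Sertoli cell sum in replicate 2, had 172 TPM in replicate 2 and 2.40 TPM in replicate 1, while Cldn11 had 70.5 TPM in replicate 2 and 92.3 TPM in replicate 1. Among Leydig cell markers, Insl3 had 1630 TPM in replicate 2 and 83.2 TPM in replicate 1, while Lhcgr had 4.65 TPM in replicate 2 and 9.47 TPM in replicate 1. The germ cell marker Tex101 had 380 TPM in replicate 2 and 64.5 TPM in replicate 1, against the direction of its sum.

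Some of the sequences behind the results come first. Lipe encodes hormone-sensitive lipase, which frees cholesterol from its esters, and in mammals a long form of it is made in testis from an upstream first exon. The stretch below opens the coding sequence of that form, Lipe-204, at chr7:25398367-25398516 on mm10, minus strand, with the start codon in capitals. It is shown because nearly all Lipe signal came from transcripts that begin here.
Lipe-204: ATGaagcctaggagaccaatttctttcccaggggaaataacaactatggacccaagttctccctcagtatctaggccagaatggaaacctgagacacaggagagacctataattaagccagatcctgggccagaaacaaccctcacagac

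The coding sequences of Mvd and Idi1 show the base composition along which the libraries differed. Both are mevalonate enzymes, Mvd the decarboxylase that makes isopentenyl diphosphate and Idi1 the isomerase that acts next. The 150 bases in the middle of each coding sequence are shown, a position chosen after base composition had been examined, because the coding starts do not show the difference. The Mvd stretch (coding bases 526 to 675, spliced from chr8:122437421-122437907, minus strand) is 63.3% G or C, and the whole coding sequence is 59.7%. The Idi1 stretch (coding bases 349 to 498, spliced from chr13:8887523-8888017, plus strand) is 45.3%, and the whole coding sequence is 42.5%.
Mvd-201: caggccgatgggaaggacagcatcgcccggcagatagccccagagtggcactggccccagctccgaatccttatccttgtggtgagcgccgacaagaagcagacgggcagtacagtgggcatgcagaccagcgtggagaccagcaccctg
Idi1-201: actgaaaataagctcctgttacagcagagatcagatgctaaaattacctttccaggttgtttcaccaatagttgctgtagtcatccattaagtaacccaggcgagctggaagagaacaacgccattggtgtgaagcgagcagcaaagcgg

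All 30 genes reached 1 TPM in replicate 2, against 22 in replicate 1, so 22 of 30 were detected in both. These include Lss and Tm7sf2, whose coding transcripts alone stayed under 1 TPM in replicate 1. Among 21474 protein-coding genes 54.6% were detected in both, 65.2% in replicate 2 and 56.4% in replicate 1. The 8 genes under 1 TPM in replicate 1 were Mvk, Pmvk, Mvd, Srebf1, Srebf2, Scap, Tspo and Stard3. Their most abundant transcripts by mean TPM were 57.0% to 59.6% G or C (median 58.6%), while those of the other 22 genes were 41.9% to 56.4% (median 49.0%). These ranges did not overlap, but this depends on the choice of transcript. The only Pmvk transcript with counts in replicate 1, Pmvk-203, is 52.9%, inside the range of the other 22 genes. By mean TPM the median gene of the list stood at percentile 63.3 of protein-coding genes, and 19 stood above the protein-coding median in both libraries. The order of the 30 levels had a Spearman correlation of 0.82 between the libraries, across genes, which are not independent replicates.

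**Figure D1:**
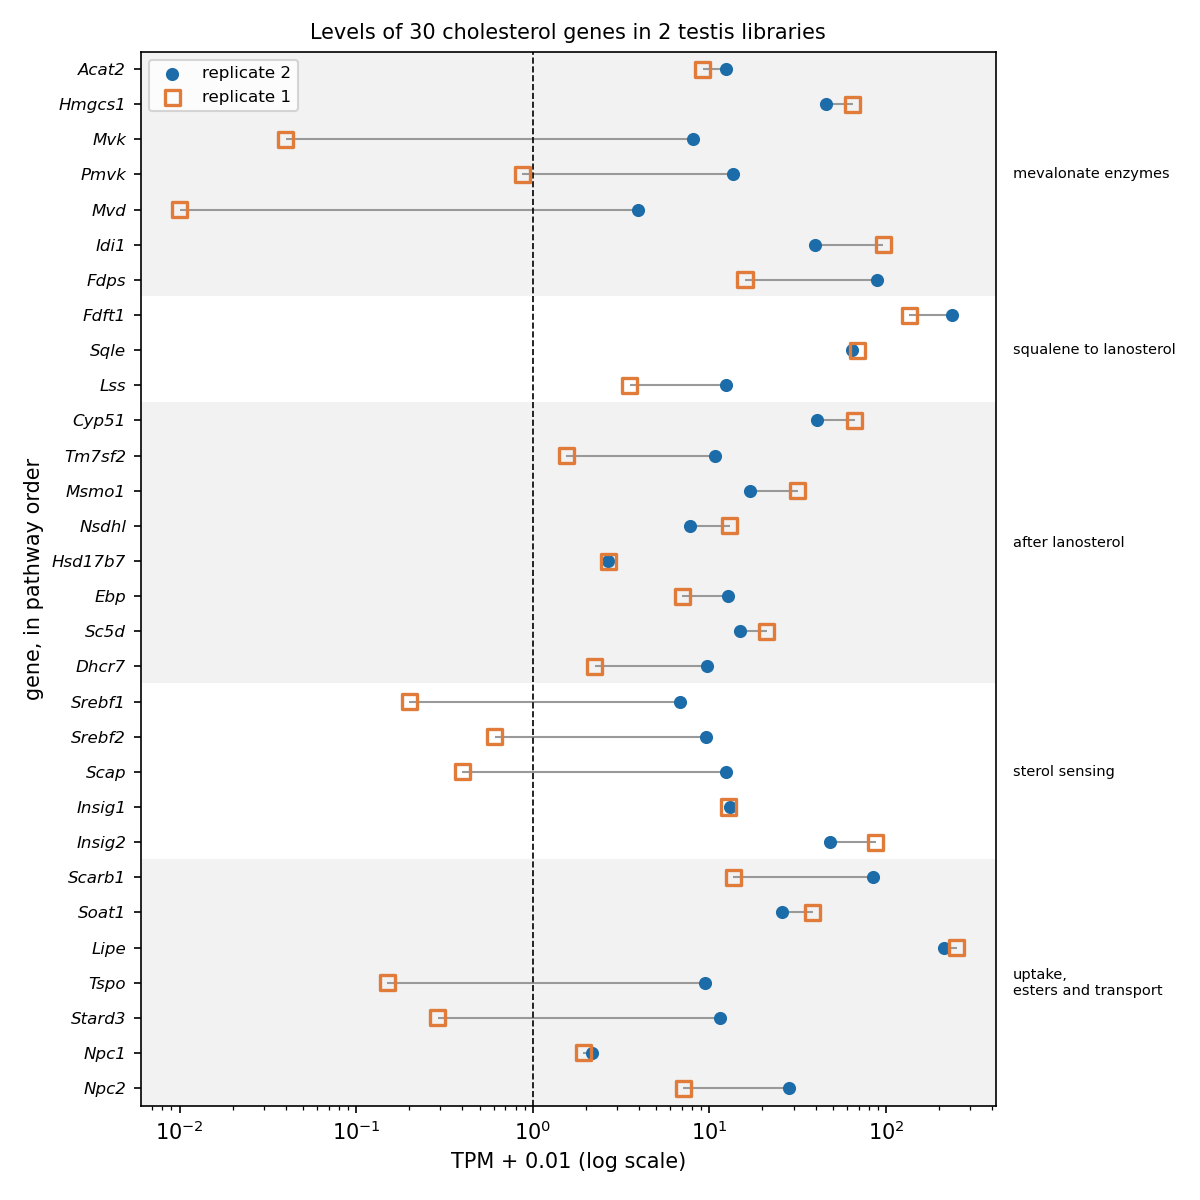
Level of each of the 30 genes in TPM with 0.01 added, on a log axis, with filled circles for replicate 2 and open squares for replicate 1 of 1 testis. Grey bands separate the roles, the line joins the 2 libraries and the dashed line marks 1 TPM. Fdft1 and Lipe stand highest in both libraries, and 8 genes fall under the dashed line in replicate 1.

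Among the enzymes of the mevalonate stage, Hmgcs1, Idi1 and Fdps had the highest mean levels and the 3 enzymes that convert mevalonate the lowest. In replicate 2 alone Pmvk, 1 of these 3, stood above Acat2, at 13.7 TPM against 12.5 TPM. The 7 enzymes summed to 213 TPM in replicate 2 and 187 TPM in replicate 1 (200 ± 18.4, SD, n = 2). Acat2, the cytosolic thiolase that joins acetyl-CoA units, had 12.5 TPM in replicate 2 and 9.17 TPM in replicate 1. Hmgcs1, the cytosolic synthase that makes HMG-CoA, had 45.9 TPM in replicate 2 and 64.9 TPM in replicate 1. These 2 opening steps were detected in both libraries.

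The next 3 enzymes convert mevalonate to isopentenyl diphosphate. Mevalonate kinase (Mvk) had 8.07 TPM from 162 counts in replicate 2 and 0.03 TPM from 1 count in replicate 1. Phosphomevalonate kinase (Pmvk) had 13.7 TPM from 190 counts in replicate 2 and 0.86 TPM from 18 counts in replicate 1. Mvd (ENSMUSG00000006517.4, chromosome 8, 122433601 to 122443422) had 3.92 TPM from 85 counts in replicate 2 and was at 0 in replicate 1. This run of steps was seen almost only through replicate 2, and its level in the testis rests on that library. Idi1 (ENSMUSG00000058258.10, chromosome 13, 8885501 to 8892451) had 39.8 TPM in replicate 2 and 96.5 TPM in replicate 1. Farnesyl diphosphate synthase (Fdps), which makes the branch point to sterols and other isoprenoids, had 89.5 TPM in replicate 2 and 15.9 TPM in replicate 1. Idi1 and Fdps thus stood in opposite order in the libraries. In annotation M21, Fdps shares 1124 exon bases on the same strand with Gm43738, which was not analysed here, and its counts are uncertain for that reason.

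From squalene to lanosterol, the committed steps towards sterols held the highest summed level of the 3 synthesis stages in both libraries, 315 TPM in replicate 2 and 209 TPM in replicate 1 (262 ± 75.1, SD, n = 2). Squalene synthase (Fdft1, ENSMUSG00000021273.9, chromosome 14, 63145150 to 63179578 on mm10) had 238 TPM in replicate 2 and 136 TPM in replicate 1 and ranked first of the 18 enzymes in both. Squalene epoxidase (Sqle) had 64.6 TPM in replicate 2 and 69.2 TPM in replicate 1 and was at rank 3 in both. Lanosterol synthase (Lss), which closes the ring system, had 12.4 TPM in replicate 2 and 3.53 TPM in replicate 1. Its coding transcripts had 4.43 TPM in replicate 2 and 0.35 TPM, from 1 count, in replicate 1. Transcripts under 450 bases held 42.5% of Lss TPM in replicate 2. Exons of Fdft1 share 774 bases with Ctsb on the opposite strand, and the sources used here do not state whether counting used strand. Ctsb itself had 27.5 TPM in replicate 2 and 13.0 TPM in replicate 1, below Fdft1 in both. Other overlaps on the opposite strand concern Scap (985 bases with 5830462I19Rik), Lipe (918 with 4732471J01Rik), Hmgcs1 (557 with Gm48342), Npc1 (511 with Rmc1), Idi1 (323 with Gm48574), Lss (381 with 4930483K19Rik), Cyp51 (166 with Akap9), Srebf1 (109 with Rai1) and Tspo (53 with Mcat).

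All 8 enzymes after lanosterol were detected in both libraries, which held for 4 of the 7 mevalonate enzymes and 54.6% of protein-coding genes. Tm7sf2 passed in replicate 1 mainly on transcripts without coding annotation, since its coding transcripts had 0.46 TPM from 6 counts there. The median transcript was 46.0% G or C for these 8 enzymes and 52.2% for the mevalonate enzymes. Together the 8 enzymes summed to 116 TPM in replicate 2 and 146 TPM in replicate 1 (131 ± 21.2, SD, n = 2). Cyp51 (ENSMUSG00000001467.4, chromosome 5, 4081145 to 4104746), which removes a methyl group from lanosterol, had 40.8 TPM in replicate 2 and 66.7 TPM in replicate 1 and was the highest of the 8 in both. Tm7sf2, the sterol reductase that acts on the Cyp51 product, had 10.7 TPM in replicate 2 and 1.54 TPM in replicate 1. Msmo1 and Nsdhl, which together strip further methyl groups, stood lower in replicate 2, at 16.9 and 7.78 TPM, than in replicate 1, at 31.7 and 13.0 TPM. Hsd17b7, the ketoreductase of the same complex, had 2.67 TPM in replicate 2 and 2.69 TPM in replicate 1 and was the lowest of the 8 in replicate 2.

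The last members of this stage move and remove ring double bonds. The sterol isomerase Ebp had 12.7 TPM in replicate 2 and 7.02 TPM in replicate 1. The desaturase Sc5d had 14.9 TPM in replicate 2 and 21.2 TPM in replicate 1. Dhcr7, the reductase that makes cholesterol from its immediate precursor, had 9.65 TPM in replicate 2 and 2.24 TPM in replicate 1. The median enzyme after lanosterol had 11.7 TPM in replicate 2 and 10.0 TPM in replicate 1, beside 13.7 TPM in replicate 2 and 9.17 TPM in replicate 1 for the median mevalonate enzyme. Expressed as a log2 ratio of medians this was -0.22 in replicate 2 and 0.13 in replicate 1, so the libraries gave opposite signs. Of the 8 enzymes, Tm7sf2 shares 532 exon bases with Vps51 on the same strand, and its counts are uncertain for that reason.

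Among the sterol sensors, Insig2 was the most abundant in both libraries and the 2 SREBP genes and Scap were under 1 TPM in replicate 1, while in replicate 2 Scap stood near Insig1. The 5 genes summed to 90.3 TPM in replicate 2 and 102 TPM in replicate 1 (95.9 ± 7.98, SD, n = 2). Srebf1, whose SREBP acts mostly on fatty acid synthesis, had 6.80 TPM in replicate 2 and 0.19 TPM, from 3 counts, in replicate 1. Srebf2, whose SREBP acts mostly on cholesterol genes, had 9.52 TPM in replicate 2 and 0.60 TPM in replicate 1. Scap had 12.4 TPM in replicate 2 and 0.39 TPM in replicate 1. Insig1 had 13.1 TPM in replicate 2 and 12.8 TPM in replicate 1, and Insig2 had 48.5 TPM in replicate 2 and 87.6 TPM in replicate 1.

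Within each library, related genes could be set against each other per length, with an exact Clopper-Pearson 95% interval that covers counting error only. Insig1 over Insig2 was -1.89 on the log2 scale in replicate 2 (interval -2.04 to -1.74) and -2.78 in replicate 1 (-2.90 to -2.66). The Insig2 level in replicate 1 includes 26.9 TPM of Insig2-206, a retained-intron transcript of 334 bases. The coding transcripts of Insig2 had 60.6 TPM there, above the 12.8 TPM of Insig1. The size of the ratio thus depends on which transcripts are counted, which the interval does not cover. Insig2 was thus higher in both libraries beyond counting error. Srebf2 over Srebf1 was 0.49 in replicate 2 (0.28 to 0.70) and 1.66 in replicate 1 (0.02 to 3.95), where the interval reached almost to 0. With the authors' posterior mean TPM this ratio, averaged over the libraries, was -0.55, so the order of the 2 SREBP genes was not settled. Npc2 over Npc1 was 3.73 in replicate 2 (3.48 to 3.98) and 1.89 in replicate 1 (1.65 to 2.13).

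Among the genes of uptake, esters and transport, Lipe stood far above the rest, and the 7 genes summed to 376 TPM in replicate 2 and 314 TPM in replicate 1 (345 ± 44.1, SD, n = 2). Scarb1 (ENSMUSG00000037936.11, chromosome 5, 125277087 to 125341094), the receptor that takes cholesterol esters from HDL into Leydig cells, had 84.8 TPM in replicate 2 and 13.7 TPM in replicate 1. Soat1, which esterifies cholesterol for storage, had 25.8 TPM in replicate 2 and 38.4 TPM in replicate 1. Lipe (ENSMUSG00000003123.11, chromosome 7, 25379527 to 25398710) had 214 TPM in replicate 2 and 253 TPM in replicate 1. By TPM it was the highest of the 30 genes in replicate 1 and next to Fdft1 in replicate 2. Its place in replicate 1 depends on length. Lipe was scaled over 1162 bases in replicate 1 and 2835 in replicate 2, as most counts in replicate 1 went to a short transcript. By counts Fdft1 stood above Lipe in both libraries, with 7885 against 6366 in replicate 1. Scarb1 and Soat1, the genes of uptake and storage, stood in opposite order in the libraries.

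Tspo, a protein of the outer mitochondrial membrane, had 9.41 TPM from 87 counts in replicate 2 and 0.14 TPM from 2 counts in replicate 1. Stard3, which moves sterols out of late endosomes, had 11.5 TPM in replicate 2 and 0.28 TPM in replicate 1. Npc1 and Npc2 carry cholesterol out of the lysosome, Npc2 as a soluble carrier and Npc1 in the membrane. Npc1 had 2.15 TPM in replicate 2 and 1.92 TPM in replicate 1, and Npc2 had 28.4 TPM in replicate 2 and 7.12 TPM in replicate 1. Only Npc2 of this pair differed between the libraries past the threshold used below.

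Most of these genes differed between the libraries, as did most genes of the table. Expected counts were compared by an exact two-sided conditional binomial test with TMM-scaled library sizes. Calls required a ratio of at least 2 and a Benjamini-Hochberg adjusted p under 0.05. Of the 30 genes, 17 were called (56.7%), while 56.0% of the 18581 tested genes were called. In replicate 2, 13 genes were called higher, where 32.1% of all tested genes were, and 4 were called lower, where 23.9% of all tested genes were. The share called was thus near the background, and this test compares the reads of 2 libraries, with no replicate on either side. The part of the cell type markers, whose single genes stood higher in either library, was not tested.

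The 13 genes called higher in replicate 2 were Mvk, Pmvk, Mvd, Fdps, Tm7sf2, Dhcr7, Srebf1, Srebf2, Scap, Scarb1, Tspo, Stard3 and Npc2. The smallest of these differences was that of Npc2, at 3.19-fold (exact 95% counting interval 2.87 to 3.56). Mvd was at least 35.8-fold higher in replicate 2, taking a count of 0 to allow up to 3 counts in replicate 1 and leaving out the counting error of its 85 counts in replicate 2. Mvk was 205-fold higher, but with 1 count in replicate 1 the interval ran from 36.2 to 8136. Srebf1 was 115-fold higher (38.9 to 561) and Tspo 54.98-fold higher (14.8 to 461), resting on 3 and 2 counts in replicate 1.

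The 4 genes called lower in replicate 2 were Idi1, Cyp51, Msmo1 and Nsdhl. Idi1 had a log2 ratio of -1.60 (adjusted p from the exact test below the smallest number the computer can hold). Cyp51 had a log2 ratio of -1.02, with an adjusted p of 4.8e-181 by the exact test, just past the limit of 2-fold. Msmo1 had a log2 ratio of -1.21 (interval -1.37 to -1.05). Nsdhl had a log2 ratio of -1.05, and its interval of -1.29 to -0.82 spans the limit too. With plain library totals in place of TMM scaling, Idi1 alone was called lower, since plain totals moved the median of all genes to 0.29. Of all tested genes 15.4% were called lower in that setting.

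**Figure D2:**
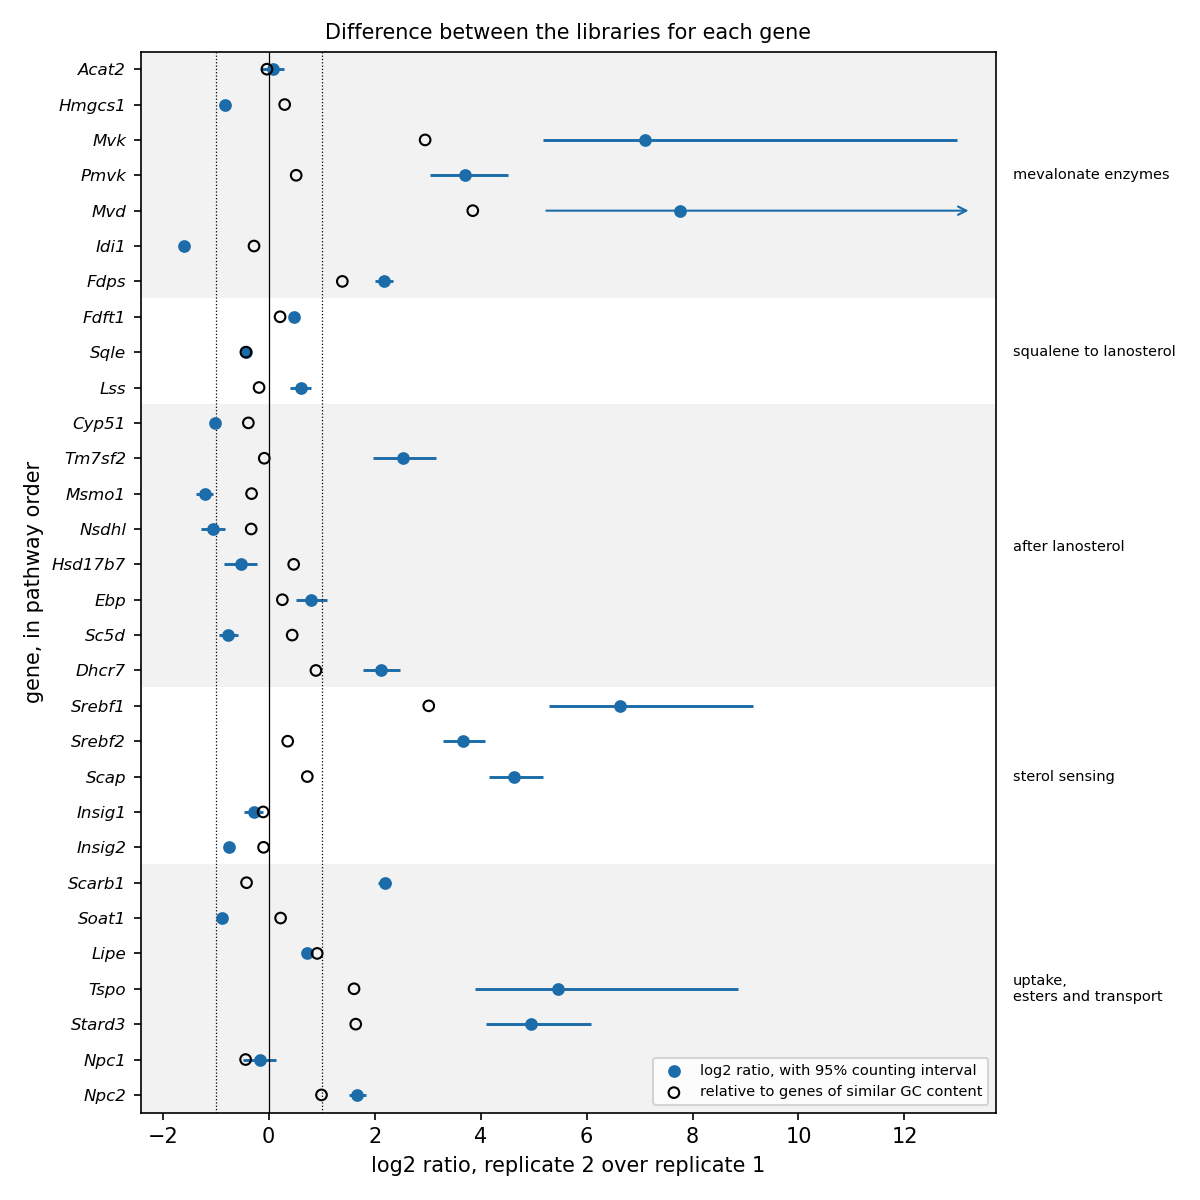
Log2 ratio of scaled counts, replicate 2 over replicate 1, for each gene (filled circles, bars for the exact 95% counting interval, for Mvd an arrow from the bound that 3 counts in replicate 1 give), and the same ratio relative to genes of similar GC content (open circles). Dotted lines mark a ratio of 2 in either direction. Most open circles lie between the dotted lines, and 24 of 30 lie within 1 of 0.

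These differences followed the base composition of the transcripts. Across the 30 genes the Spearman correlation of transcript GC content with the log2 ratio was 0.96, and across all 18396 tested genes with a known GC content it was 0.89. These are descriptions across genes that share both libraries. The genes called higher in replicate 2 had a GC content of 51.3% to 59.6%, those called lower 41.9% to 46.2% and the 13 not called 42.9% to 52.2%. The whole transcripts Mvd-201, at 59.3%, and Idi1-201, at 41.9%, lie near the ends of this range. Both genes were picked for the extremes of the log2 ratio, so they add no separate evidence of the pattern.

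The same pattern was seen in genes outside the list. Below 45% GC the 5 listed genes had a median log2 ratio of -0.82, beside -1.31 for all tested genes. From 45% to 50% the 8 listed genes had -0.58, beside -0.40, and from 50% to 55% the 7 listed genes had 0.81, beside 0.95. At 55% or more the 10 listed genes had 4.79, beside 3.18 for all tested genes. Over all GC classes the median was 0.66 for the list and -0.0042 for all tested genes. With Mvd at its bound these medians do not move, since it stays above them. Whether base composition itself, or something that goes with it, underlies the difference was not tested.

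**Figure D3:**
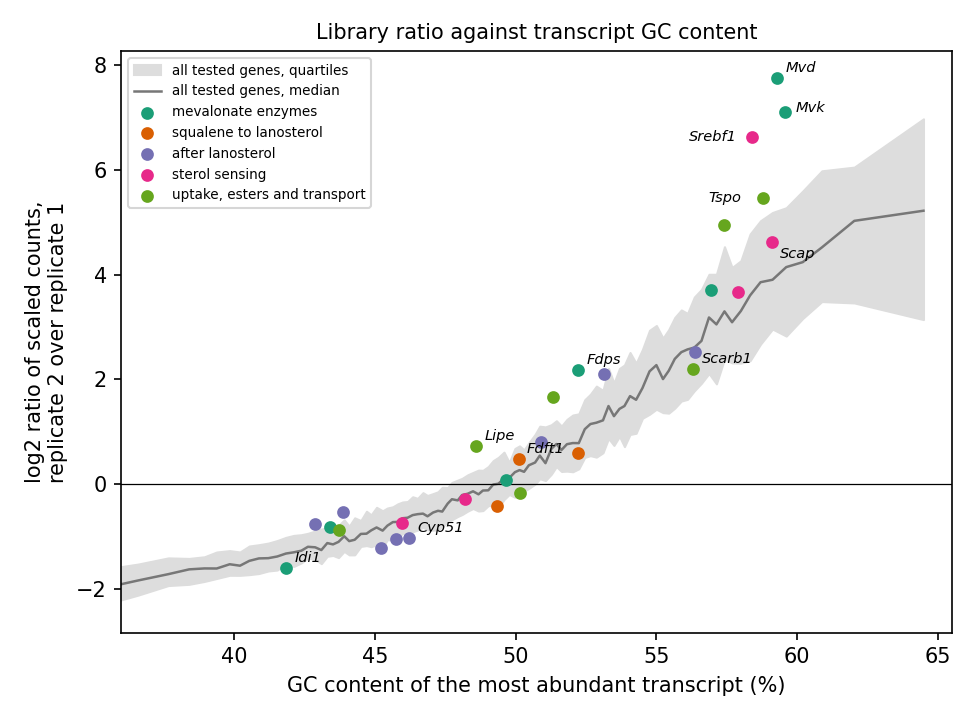
Log2 ratio of scaled counts, replicate 2 over replicate 1, against the GC content of the most abundant transcript in percent, for the 30 genes coloured by role. The grey line and band give the median and quartiles of all tested genes in bins of GC content. Listed genes climb with the grey line, and Mvd, Mvk and Srebf1 lie above the band.

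Set against genes of similar GC content, 24 of the 30 genes lay within 1 log2 unit, as did 77.9% of all tested genes. The SD of the 30 log2 ratios was 2.73 before and 1.09 after this step. Only Fdps, Mvk, Mvd, Srebf1 and Stard3 were then called, all higher in replicate 2, by 1.39, 2.95, 3.85, 3.02 and 1.64 log2 units. Of all tested genes 20.2% were called in this way, 11.2% higher and 9.00% lower in replicate 2, so the share of the list, 5 of 30, was near the background. Of these, Mvk, Mvd and Srebf1 had at most 3 counts in replicate 1, so their sizes are loosely bounded, and that of Mvd depends on the 0.5 added to its count of 0. Tspo lay 1.61 above its GC neighbours and was not called. Fdps had 1302 counts in replicate 2 and 364 in replicate 1, and no other gene of the 5 had as many in replicate 1. Scarb1, with a log2 ratio of 2.19, had a value of -0.42 relative to its GC neighbours, and Lipe, with a log2 ratio of 0.72, had 0.92. The Scarb1 value sets the GC content of a coding transcript, Scarb1-202, beside counts of all its transcripts. Retained-intron transcripts held 10.6% of those counts in replicate 2 and 73.2% in replicate 1. Its coding transcripts had 2195 counts in replicate 2 and 183 in replicate 1, and these were not set against GC neighbours.

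The GC content used for each gene is that of the transcript highest by mean TPM, and in 9 genes the choice of library would change it. For Lipe it was that of Lipe-203 (48.6%), and with that of Lipe-204 (55.6%), which led in replicate 2, the value was -1.67, so its sign depends on the transcript. With the transcript that led in replicate 1, Pmvk lay 2.53, Tm7sf2 1.74 and Ebp 1.52 above their GC neighbours and were called too. This alternative was added after seeing the data. The other 5 of the 9 genes, Mvk, Lss, Sc5d, Srebf1 and Scarb1, kept their side of the threshold.

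The transcripts behind these totals differed too. Of the 30 genes, 9 have 1 annotated transcript and 21 have more, and in 12 of the 21 the libraries shared the leading transcript. In replicate 2 every leading transcript was protein-coding. In replicate 1 the leading transcript had no coding annotation for 5 genes, Lss, Tm7sf2, Ebp, Srebf1 and Scarb1. These are the authors' estimates of how reads divide among overlapping transcripts.

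In 4 of these 5 genes, transcripts that keep an intron took a larger share of the counts in replicate 1. Transcripts annotated as retained introns held 40.0% of Lss counts in replicate 2 and 99.7% in replicate 1. The coding transcript Lss-201 had 272 counts in replicate 2 and 0 in replicate 1, so the Lss total in replicate 1 holds almost no coding message. For Scarb1 the share was 10.6% in replicate 2 and 73.2% in replicate 1. Its coding forms Scarb1-202 and Scarb1-201, of 506 and 509 codons, had 41.9 and 29.4 TPM in replicate 2 and 2.39 and 1.37 TPM in replicate 1. Tm7sf2 had 28.4% in replicate 2 and 80.6% in replicate 1, and Ebp 12.8% in replicate 2 and 45% in replicate 1.

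In each of these 4 genes the intron-keeping transcript with most counts in replicate 1 was lower in GC than the coding transcript that led in replicate 2. Lss-204 is 48.7% G or C, against 52.2% for Lss-201. Scarb1-207 is 48.5%, against 56.3% for Scarb1-202, while Scarb1-209, which led by TPM in replicate 1, is 55.1%. Ebp-202 is 45.7%, against 50.9% for Ebp-201, and Tm7sf2-206 is 52.2%, against 56.4% for Tm7sf2-201. In Insig2 a 334-base retained-intron transcript, Insig2-206, took 26.9 TPM in replicate 1 and 0 TPM in replicate 2. It is shorter than the labelled library size, and without transcripts under 450 bases the mean sum of the sterol sensors was 81.6 TPM.

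**Figure D4:**
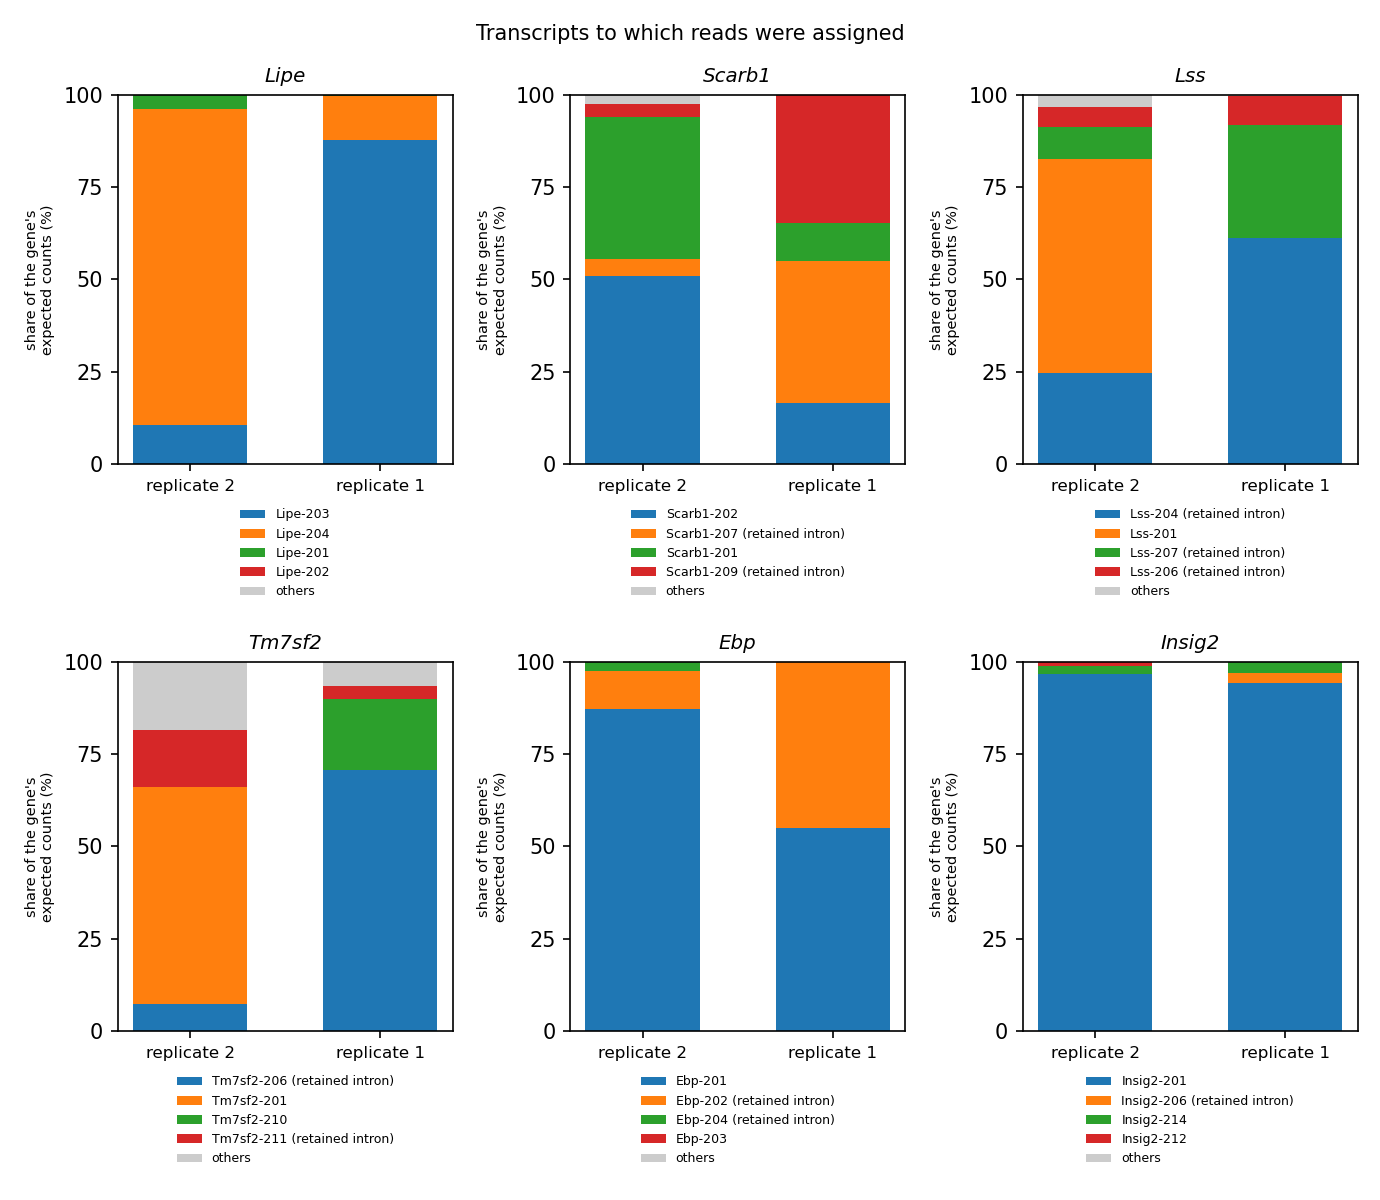
Share of each gene's expected counts assigned to its transcripts, in percent, for Lipe, Scarb1, Lss, Tm7sf2, Ebp and Insig2, with replicate 2 on the left and replicate 1 on the right of each panel. Colours are the 4 transcripts with the largest shares and grey is the rest. Retained-intron transcripts fill most of the Lss bar (99.7%) and the Scarb1 bar (73.2%) in replicate 1.

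Lipe signal in this testis came almost wholly from the 2 transcripts with the upstream start, Lipe-204 and Lipe-203. Transcripts that begin at position 25398710 or the base beside it on chromosome 7 held 96.5% of Lipe TPM in replicate 2 and 99.9% in replicate 1. They had 207 TPM in replicate 2 and 252 TPM in replicate 1, while transcripts with other starts had 7.5 TPM in replicate 2 and 0.16 TPM in replicate 1. In counts the split was 8006 to 312 in replicate 2 and 6355 to 11 in replicate 1. The other-start transcript with counts, Lipe-201, is 57.8% G or C, against 48.6% for Lipe-203, which led in replicate 1. Whether base composition enters the share in replicate 1 was not tested. The first exon of Lipe-204 (25397598 to 25398710, 1113 bases) overlaps 0 exons of the other-start transcripts, so reads within it tell the starts apart.

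The libraries disagreed on what lies behind that exon. Lipe-204, with 10 exons and 1072 codons, held 68.8% of Lipe TPM in replicate 2 and 3.95% in replicate 1. Lipe-203, a single exon of 1251 bases that begins beside the start of Lipe-204 and runs past its first exon, held 27.7% in replicate 2 and 96.0% in replicate 1. Counts for Lipe-204 were 7135 in replicate 2 and 764 in replicate 1, and for Lipe-203 871 in replicate 2 and 5592 in replicate 1. The first exon is 48.7% G or C and the later 2600 bases 58.6%. The library with more counts in Lipe-204 was thus the one with more reads from GC-rich genes, and which form predominates in the testis cannot be told from these libraries.

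The rest of the pathway was taken from 4 further lists, 53 genes found in all, of which 48 could be tested, with 16 called higher (33.3%) and 11 called lower (22.9%) in replicate 2, beside 32.1% higher and 23.9% lower of all tested genes. These shares were near the background. Among 14 other isoprenoid and sterol enzymes, 3 were called higher and 3 lower of 13 tested (23.1% each, beside 32.1% and 23.9% of all tested genes). Nus1, a subunit of dolichol synthesis, had 15.1 TPM in replicate 2 and 31.5 TPM in replicate 1, and Acat1, the mitochondrial thiolase, had 22.6 TPM in replicate 2 and 19.4 TPM in replicate 1. The median log2 ratio of this list was -0.05.

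Among 13 other regulators, 5 were called higher (38.5%, beside 32.1% of all tested genes) and 3 lower (23.1%, beside 23.9%). Crem, a transcription factor of spermatids, had 425 TPM in replicate 2 and 606 TPM in replicate 1. Rnf139, a ubiquitin ligase of the endoplasmic reticulum membrane, had 251 TPM in replicate 2 and 575 TPM in replicate 1. Both stood above the 5 sterol sensors of the list in both libraries.

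Among 20 other genes of uptake, esters, transport and efflux, 5 were called higher (27.8%, beside 32.1% of all tested genes) and 4 lower (22.2%, beside 23.9%) of 18 tested. Stard6, a sterol-binding protein of germ cells, had 744 TPM in replicate 2 and 2230 TPM in replicate 1, more than any of the 30 genes. Osbp2, an oxysterol-binding protein, had 685 TPM in replicate 2 and 59.9 TPM in replicate 1, and Gramd1b, which moves cholesterol from the plasma membrane, had 132 TPM in replicate 2 and 77.3 TPM in replicate 1. Of 6 genes that convert cholesterol, 4 could be tested, of which 3 were called higher and 1 lower, too few to set against the 32.1% and 23.9% of all tested genes. Cyp11a1, which starts steroid synthesis in Leydig cells, had 96.6 TPM in replicate 2 and 25.5 TPM in replicate 1. Cyp27a1, a mitochondrial sterol hydroxylase, had 7.23 TPM in replicate 2 and 2.07 TPM in replicate 1, and Cyp46a1, a sterol hydroxylase best known from brain, had 5.80 TPM in replicate 2 and 0.62 TPM in replicate 1.

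Promoter letters were compared for the 24 genes with an entry in the RefSeq promoter table (GRCm38.p6), which holds 250 bases before and 50 after each start. Scarb1, Sqle, Fdps, Fdft1, Tspo and Npc1 had no entry, so the shares leave them out. The sterol regulatory element TCACNCCAC, where SREBPs bind, was sought on both strands and stood in 2 of 24 genes (8.33%) and in 1.44% of 27025 genes. The CCAAT box, to which NF-Y binds beside SREBPs, stood in 21 of 24 (87.5%) and in 41.1% of all genes. The CRE bound by CREM, TGACGTCA, stood in 0 of 24 and in 2.03% of all genes. Its shorter core TGACG, which also lies inside the full CRE, stood in 10 of 24 (41.7%), Cyp51 among them, and in 23.0% of all genes. A gene counted when any of its promoter windows matched, with 33 windows for the 24 genes and 32851 for all 27025. In 27 of the 33 windows, bases after the start were found in an annotated transcript of the gene. The 27025 genes were not limited to protein-coding or expressed genes. All these shares are matches of letters, and no binding was measured.

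The promoters that held the sterol regulatory element belong to Hmgcs1, at -137 to -129 from the start, and Stard3, at -211 to -203. The 250 bases before the start are shown for both because they carry this match, with it and each CCAAT box (ATTGG on the printed strand) in capitals. Hmgcs1 lies at chr13:119690101-119690350, plus strand, and Stard3 at chr11:98358118-98358367, plus strand. Hmgcs1 has 3 CCAAT boxes in these bases and Stard3 has 1. The levels of the 2 genes were not alike, with 45.9 TPM for Hmgcs1 and 11.5 TPM for Stard3 in replicate 2 and 64.9 TPM and 0.28 TPM in replicate 1.
Hmgcs1: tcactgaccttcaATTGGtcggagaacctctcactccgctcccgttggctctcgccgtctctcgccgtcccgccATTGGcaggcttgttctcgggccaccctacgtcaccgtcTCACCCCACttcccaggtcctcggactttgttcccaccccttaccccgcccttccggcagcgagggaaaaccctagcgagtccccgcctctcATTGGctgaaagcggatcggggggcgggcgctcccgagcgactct
Stard3: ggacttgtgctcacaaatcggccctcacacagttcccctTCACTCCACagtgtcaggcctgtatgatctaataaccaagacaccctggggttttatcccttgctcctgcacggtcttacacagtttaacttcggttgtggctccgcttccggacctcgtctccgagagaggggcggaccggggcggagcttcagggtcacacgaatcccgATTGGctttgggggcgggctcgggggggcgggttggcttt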

How the data were processed

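For each library the authors deposited a gene table and a transcript table, quantified per the deposited notes from transcriptome alignments on mm10 with annotation M4. Which aligner and quantifier were used is not given in the sources used here. Deposited by the authors were expected counts (estimated reads per gene, which need not be whole), TPM and FPKM (both scaled for length and depth), each transcript's share of its gene as a percent, and posterior means with a posterior SD, used as a score of uncertainty. The posterior SD was at most 3.38% of a listed gene's count in replicate 2 and 0.668% in replicate 1.

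Names, positions and transcript sequences came from GENCODE M21 on the same assembly, matched by identifier for 42462 of 43346 genes. Expected counts were rounded. TMM scaling used edgeR 4.0.16 (factor 1.11 for replicate 2 and 0.904 for replicate 1), and genes whose mean count was at least 10 were tested as described. Log2 ratios add 0.5 to each count. GC content was known for 99.0% of tested genes, and GC neighbours came from 100 bins of equal gene number. Alternatives covered DESeq2 1.42.0 size factors, plain totals, filters, limits, FPKM, posterior means, each library alone and the GC content of another leading transcript. Intervals cover counting error only, since reads that carry no molecular identifier may be copies of 1 molecule.

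The members, the further lists, the pairs and the tests were chosen with earlier results of these data known. All members are named, with the 3 highest genes of each further list and the 2 highest of each marker list by mean TPM, and each member's most abundant transcript. Values of 2 further-list genes named by it are not reported here. Of the 16 listed isoprenoid and sterol enzymes 14 were found. Python 3.11.15, pandas 2.3.3, scipy 1.17.1 and R 4.3.3 were used.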

Additional observations from a re-analysis of the deposited data

How the results depend on the processing

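The count of 22 genes detected in both libraries stayed between 17 and 30 under every limit, unit or single library tried. The number called relative to genes of similar GC content was 5, all higher in replicate 2 and 0 lower, where 20.2% of all tested genes were called. With the GC content of each gene's leading transcript in 1 library, added after seeing the data, it was 6 (5 higher, 1 lower) for replicate 2 and 8 (8 higher, 0 lower) for replicate 1, and the median log2 ratio was 0.24 and 0.41. The number called lower was 1 with plain totals, 8 at a ratio of 1.5, 1 at a ratio of 3 and 1 by TPM ratio. Of all genes compared in these settings 15.4%, 33.9%, 8.56% and 16.1% were called lower, in the same order. The median log2 ratio of the list was 0.96 with plain totals, 0.54 at a mean of 50 counts or more, 0.28 relative to GC neighbours and 0.81 by TPM ratio. The median percentile was 64.46 to 66.002 with either library alone and 45.1 among genes at 1 TPM or more in either library. As FPKM, another unit, the role sums were 134 (mevalonate), 175 (squalene to lanosterol), 88.0 (after lanosterol), 64.3 (sterol sensing) and 231 (uptake, esters and transport). Without transcripts under 450 bases the sterol sensing sum was 81.6 TPM. Of genes with more than 1 transcript, 12 kept the same leading one.

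The mean log2 ratio of Srebf2 over Srebf1 was -0.55 with posterior mean TPM, which turned its direction, and 2.78 without length scaling. Each library alone, added after seeing the data, kept the direction of every pair. Relative to GC neighbours the log2 ratio turned for Acat2 (-0.034), Hmgcs1 (0.30), Lss (-0.18), Tm7sf2 (-0.084), Hsd17b7 (0.47), Sc5d (0.44), Scarb1 (-0.42) and Soat1 (0.22). With the leading transcript of replicate 2 it turned for Lipe (-1.67), and with that of replicate 1 for Sc5d (0.030) and Scarb1 (-0.083). It turned with plain totals for Insig1 (0.0066) and Npc1 (0.13), and as a TPM ratio for Insig1 (0.035), Lipe (-0.24) and Npc1 (0.16). The cause of these shifts was not tested. Among all values of single genes, 180 of the alternatives kept direction and call and 16 turned direction. Of the rest, 16 lost a call and 4 gained one. A value that turned was counted as turned only, whether or not its call changed. The changes were most frequent relative to GC neighbours, where 12 genes kept both, 8 turned and 10 lost the call without turning. Tm7sf2 and Scarb1, among those that turned, lost the call as well. No paired analysis was possible because there is 1 group. With 1 library on each side, none could be left out of the comparison between them.

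Genes with few counts, such as Mvk with 1, set only loose bounds, although replicate 1, where the GC-rich genes were low, held more counts (31995370) than replicate 2 (20675521).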

Other observations

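Of the 48 tested genes of the further lists, 6 lay 1 log2 unit or more from genes of similar GC content, a smaller share than the 22.1% of all tested genes. Nr1h3 and Nr1h2, the nuclear receptors for oxysterols, lay 2.38 and 1.22 log2 units above their GC neighbours in replicate 2 over replicate 1, the first resting on 242 counts in replicate 2 and 6 in replicate 1. Lrp1, a receptor that takes up lipoprotein remnants, lay 1.96 above, with 1506 counts in replicate 2 and 49 in replicate 1. Syvn1, a ubiquitin ligase of the endoplasmic reticulum, lay 1.31 above, with 997 counts in replicate 2 and 59 in replicate 1. Cyp11a1 lay 1.01 above. Cyb5r3, which passes electrons to sterol desaturases, lay 1.25 below its neighbours (a value of -1.25), although its own log2 ratio was 2.05. These genes were chosen after their values were seen, and no test was made of them as a group.

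The X chromosome held 2 of the listed enzymes, Nsdhl and Ebp. Nsdhl had 212 counts in replicate 2 and 555 in replicate 1, and Ebp had 238 counts in replicate 2 and 172 in replicate 1.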
